A study of Mus musculus with 17 samples.

Results

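The genes described here are Apobec1, Sumf1 and 8 genes that lie next to or near Kdm5a, all on mouse chromosome 6. Kdm5a is the current name of Rbp2, a gene that was floxed in part of these mice. The 10 genes were listed by symbol, and each probe set annotated to exactly 1 of those symbols was taken, which gave 13 probe sets for the 10 genes, out of 19938 genes measured. Their levels in groups with and without the floxed Rbp2 allele entered the choice, so the differences between Rbp2 groups below are a description, with no test. No member was lost, because no filter on low values was applied.

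Islet RNA of 2-month-old mice without any treatment was measured on 17 arrays in 5 groups. Those were wt mice (3 arrays), RIP-Cre mice (3), Men1flf RIP-Cre mice (3, called Men1 RIP-Cre below), Rbp2flf RIP-Cre mice (4, called Rbp2 RIP-Cre) and Men1flf Rbp2flf RIP-Cre mice (4, called Men1 Rbp2 RIP-Cre). RIP-Cre, shared by 4 of the 5 groups, is a Cre recombinase driven by the rat insulin promoter, so floxed genes are cut in beta cells while the other cells of the islet keep them. Arrays are labelled repeats, with nothing on whether each came from its own mouse, so every p-value reflects only array-to-array spread, which may be technical. No source used here names the strain on which each floxed allele was made, so loss of Rbp2 and inheritance of the chromosome 6 segment that carries the floxed allele cannot be told apart in these groups.

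Kdm5a is a demethylase that takes methyl groups from lysine 4 of histone H3, a mark of active promoters, and Men1 codes for menin, which works with enzymes that place that mark. Apobec1 is a cytidine deaminase that edits messenger RNA, best known for the C-to-U change that shortens apolipoprotein B in the gut. Sumf1 is the enzyme of the endoplasmic reticulum that converts a cysteine of every sulfatase into formylglycine and so switches it on. The genes nearest to Kdm5a have unrelated roles, among them transport of betaine and GABA (Slc6a12 and Slc6a13), chloride-regulated kinase signalling (Wnk1) and docking of secretory vesicles (Erc1).

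In the RefSeq gene order of GRCm38.p6, the 10 genes lie on both sides of Kdm5a. Ccdc77 is its direct neighbour, followed by B4galnt3, Ninj2, Wnk1, Rad52 and Erc1, with 0, 1, 2, 3, 4 and 5 protein-coding genes between each of them and Kdm5a. On the other side come Slc6a13 and Slc6a12, with 12 and 13 protein-coding genes in between, and Apobec1 with 24. Sumf1 is the farthest, beyond Erc1, with 104 protein-coding genes between it and Kdm5a. Only gene order was used, since no source used here names the build behind the array design.

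The promoters of Apobec1 and Sumf1, whose levels separate the Rbp2 groups, and of Wnk1, which lies close to Kdm5a, are printed for a direct look at the letters CCGCCC, the short motif bound by the ARID domain of Kdm5a. Its reverse complement GGGCGG was searched too, which is the core of the GC box of Sp1 factors, so both kinds of match share their letters. Sequences are the 250 bases before the start of each gene, 5′ to 3′ on the gene's own strand, from RefSeq (GRCm38.p6). Capitals mark matches. Apobec1 is at chr6:122602445-122602694, Sumf1 at chr6:108185584-108185833 and Wnk1 at chr6:120038656-120038905, all on the minus strand.
Apobec1: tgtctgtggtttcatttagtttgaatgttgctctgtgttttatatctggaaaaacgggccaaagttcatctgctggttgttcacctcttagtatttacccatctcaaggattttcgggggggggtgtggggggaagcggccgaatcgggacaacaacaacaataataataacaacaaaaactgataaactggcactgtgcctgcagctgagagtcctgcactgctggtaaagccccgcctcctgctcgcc
Sumf1: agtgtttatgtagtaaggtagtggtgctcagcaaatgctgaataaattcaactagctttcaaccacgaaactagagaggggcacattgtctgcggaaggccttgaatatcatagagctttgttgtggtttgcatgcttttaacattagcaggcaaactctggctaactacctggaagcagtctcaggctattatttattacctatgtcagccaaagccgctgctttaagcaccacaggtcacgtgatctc
Wnk1: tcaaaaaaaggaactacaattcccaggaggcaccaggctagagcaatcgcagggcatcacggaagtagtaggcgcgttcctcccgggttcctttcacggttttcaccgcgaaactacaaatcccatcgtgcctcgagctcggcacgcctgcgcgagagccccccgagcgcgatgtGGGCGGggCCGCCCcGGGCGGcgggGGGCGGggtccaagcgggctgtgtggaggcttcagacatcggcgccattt
The windows of Apobec1 and Sumf1 held 0 matches and that of Wnk1 held 4, none of which overlap. The 10 genes had 19 windows in the table, of which 5 held the motif, beside 32.7% of all 32851 windows of this length. Counted by gene, 5 of 10 (Slc6a13, B4galnt3, Wnk1, Rad52 and Erc1) held it in at least 1 window, beside 35.4% of all genes with a window. A match is a string of letters, and the lack of 1 says only that these letters are not in that window.

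The targeted genes were checked first. Men1 lay between 8.14 and 8.87 (log2 intensity) on the 7 arrays with floxed Men1 and between 9.25 and 10.24 on the other 10, the highest of them (10.05 to 10.24) in Rbp2 RIP-Cre. Kdm5a lay between 8.95 and 9.18 in Rbp2 RIP-Cre, 9.07 and 9.39 in Men1 Rbp2 RIP-Cre, 9.09 and 9.37 in RIP-Cre, 9.39 and 9.50 in Men1 RIP-Cre and 9.11 and 9.42 in wt. Its differences of -0.22 (SE 0.11, limma adjusted p = 0.148) and -0.21 (SE 0.11, limma adjusted p = 0.399) between groups with and without the floxed allele did not pass. Where its probes lie relative to the floxed part was not analysed here, so this level checks nothing about the deletion. The median gene ranged over 7.97 to 8.16 across RIP-Cre arrays and 7.82 to 7.98 across Rbp2 RIP-Cre arrays, so small differences are read beside those of all genes. The 9 islet endocrine markers measured all read 10.64 or more on every array.

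Apobec1 was lower on every array with floxed Rbp2 than on every array without it. In wt islets it stood at 9.59, 9.57 and 10.02, and in RIP-Cre islets at 10.28, 10.25 and 10.30. The Men1 RIP-Cre arrays read 10.21, 9.59 and 9.76. The Rbp2 RIP-Cre arrays read 8.62, 8.56, 8.57 and 8.95, and the Men1 Rbp2 RIP-Cre arrays 8.82, 8.39, 9.14 and 8.60. The highest of the 8 floxed Rbp2 arrays (9.14) was thus 0.43 below the lowest of the other 9 (9.57), and the ranges of the 2 floxed Rbp2 groups overlapped.

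The difference in Apobec1 was -1.60 (SE 0.17), a 3.03-fold lower level, in Rbp2 RIP-Cre against RIP-Cre, and -1.12 (SE 0.17), or 2.17-fold lower, in Men1 Rbp2 RIP-Cre against Men1 RIP-Cre. These contrasts share no array, and both entered the choice of the gene. From high to low the group means were 10.28 ± 0.03 (SD, n = 3) in RIP-Cre, 9.85 ± 0.32 (n = 3) in Men1 RIP-Cre, 9.73 ± 0.25 (n = 3) in wt, 8.74 ± 0.32 (n = 4) in Men1 Rbp2 RIP-Cre and 8.68 ± 0.19 (n = 4) in Rbp2 RIP-Cre. RIP-Cre and Men1 RIP-Cre did not overlap, Men1 RIP-Cre and wt did, and so did both floxed Rbp2 groups. Since RIP-Cre stood above wt, the size of the fall depends on the control, and against wt the difference in Rbp2 RIP-Cre was -1.05.

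Sumf1 went the other way and was higher on every floxed Rbp2 array than on every other array. It read 8.76, 8.84 and 8.64 in wt and 8.90, 8.68 and 8.81 in RIP-Cre. Men1 RIP-Cre arrays stood higher, at 9.48, 9.35 and 9.27. Rbp2 RIP-Cre arrays read 10.01, 9.86, 9.96 and 9.65, and Men1 Rbp2 RIP-Cre arrays 9.78, 10.07, 9.96 and 9.89. The wt and RIP-Cre ranges overlapped, Men1 RIP-Cre stood clear of both neighbours in the order, and the 2 floxed Rbp2 groups overlapped each other.

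The difference in Sumf1 was 1.07 (SE 0.10), a 2.10-fold higher level, in Rbp2 RIP-Cre against RIP-Cre, and 0.56 (SE 0.10), or 1.47-fold higher, in Men1 Rbp2 RIP-Cre against Men1 RIP-Cre. Group means were 8.75 ± 0.10 (SD, n = 3) in wt, 8.80 ± 0.11 (n = 3) in RIP-Cre, 9.37 ± 0.11 (n = 3) in Men1 RIP-Cre, 9.87 ± 0.16 (n = 4) in Rbp2 RIP-Cre and 9.93 ± 0.12 (n = 4) in Men1 Rbp2 RIP-Cre. The gap between the lowest floxed Rbp2 array and the highest of the other 9 was 0.17. Across the genome 20 genes (0.1% of 19938) were lower and 68 (0.341%) higher on all 8 floxed Rbp2 arrays than on all 9 others, and nothing is read from that share for genes chosen on it.

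**Figure D1:**
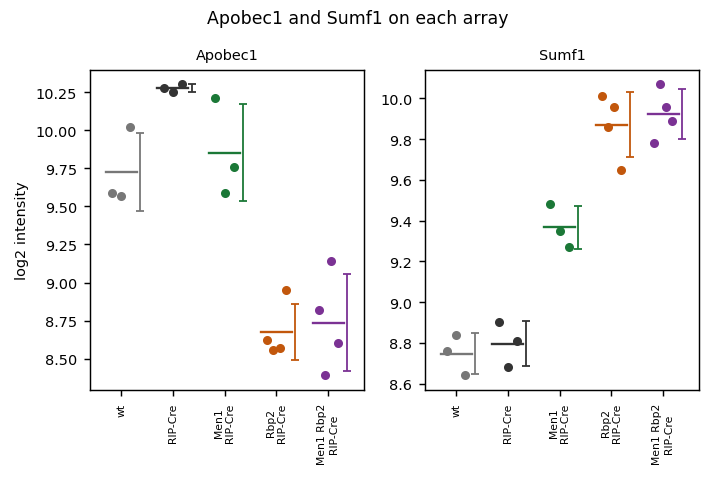
Log2 intensity (vertical axis) of Apobec1 and Sumf1 on each of the 17 arrays, by group (horizontal axis), with points for arrays, lines for group means and bars for 1 SD. The 8 arrays with floxed Rbp2 lie below the other 9 for Apobec1 (at most 9.14 against at least 9.57) and above them for Sumf1.

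Bulk islet RNA holds several cell types, and fewer cells of a type cannot be told apart from less RNA per cell. Apobec1 is made in gut epithelium and also in macrophages, so markers of both were read. The mean of the 10 macrophage markers ran from 7.58 to 7.62 (RIP-Cre), 7.55 to 7.70 (Rbp2 RIP-Cre), 7.65 to 7.90 (Men1 RIP-Cre), 7.71 to 8.06 (Men1 Rbp2 RIP-Cre) and 7.59 to 8.12 (wt), and 0 of 10 passed in either Rbp2 comparison. With that mean held fixed the Apobec1 differences were -1.60 and -1.11. The mean of the 6 gut markers was 7.99 to 8.19 in RIP-Cre, 7.34 to 8.08 in Rbp2 RIP-Cre and 7.15 to 7.34 in Men1 RIP-Cre. It was 7.52 to 8.03 in Men1 Rbp2 RIP-Cre and 7.92 to 9.80 in wt. In both Rbp2 comparisons 1 of 6 passed as higher (Vil1, a microvillus protein, 0.37 and 1.11) and 0 as lower. The other gut markers were all lower in Rbp2 RIP-Cre against RIP-Cre without passing, from -1.28 (Fabp2) to -0.18 (Cdx2). In Men1 Rbp2 RIP-Cre against Men1 RIP-Cre they were all higher without passing, from 0.03 (Cdx2) to 0.46 (Fabp2). The median difference of the 6 was -0.40 and 0.35. The part of the gut markers in the Apobec1 result was not tested. Among markers of other cells, 2 of 7 endothelial and 2 of 9 islet endocrine genes rose in Rbp2 RIP-Cre against RIP-Cre. There 1 of 4 duct genes fell (Cftr, which read only 5.11 to 6.58 over all arrays), and none of 5 acinar and 7 lymphocyte genes passed. In that comparison 6.7% of all genes were called higher and 6.7% lower. In Men1 Rbp2 RIP-Cre against Men1 RIP-Cre 0 of these 5 lists had a call, beside 1.67% of all genes.

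The other 8 genes had smaller differences on their brightest probe sets, and not in the same way in both Rbp2 comparisons. There, differences ran from -0.43 (Slc6a13) to 0.31 (Wnk1) in Rbp2 RIP-Cre against RIP-Cre and from -0.10 (Wnk1) to 0.33 (Slc6a12) in Men1 Rbp2 RIP-Cre against Men1 RIP-Cre. Over all 10 genes, 6 were lower and 1 higher without overlap of the arrays in the first comparison, where 15.4% of all genes were lower and 11.6% higher in that way. In the second, 1 was lower and 2 were higher, against 6.15% and 14.3% of all genes. The median difference of the 10 was -0.31 and 0.03, beside -0.13 and 0.07 over all genes.

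**Figure D2:**
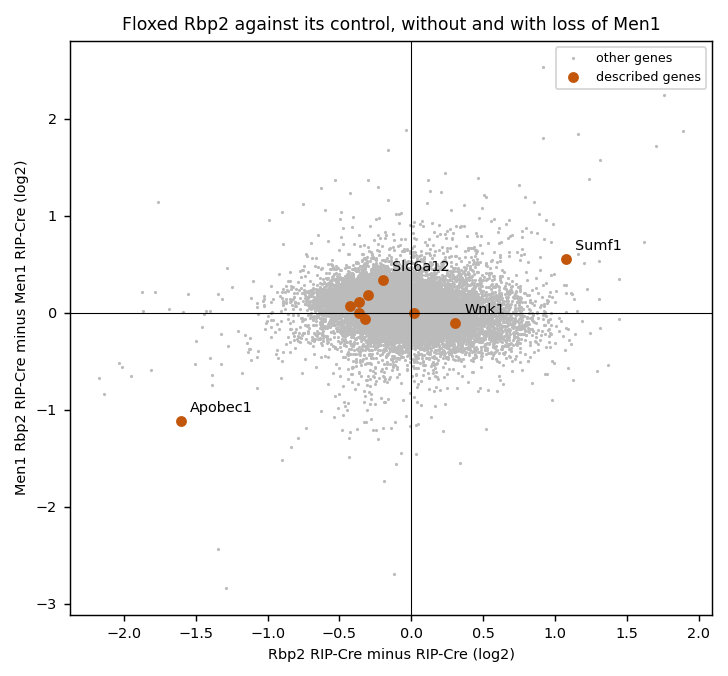
Log2 difference in Rbp2 RIP-Cre against RIP-Cre (horizontal axis) and in Men1 Rbp2 RIP-Cre against Men1 RIP-Cre (vertical axis), a point per gene, with the 10 described genes in orange. Apobec1 lies low in both (-1.60 and -1.12) and Sumf1 high in both (1.07 and 0.56), while the other 8 lie near the bulk of genes.

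The transporters Slc6a12 and Slc6a13, which carry betaine, GABA and taurine, lie side by side. Slc6a13 read 7.38, 7.09 and 7.17 in RIP-Cre and 6.67, 6.74, 6.90 and 6.84 in Rbp2 RIP-Cre, with no overlap. It read 6.54, 6.78 and 6.94 in Men1 RIP-Cre and 6.82, 6.92, 6.89 and 6.68 in Men1 Rbp2 RIP-Cre, where ranges overlapped (difference 0.07, SE 0.11), and 7.09, 6.95 and 7.13 in wt. Slc6a12 overlapped in the first comparison, at 7.87, 7.67 and 7.93 in RIP-Cre against 7.47, 7.76, 7.58 and 7.70 in Rbp2 RIP-Cre (-0.20, SE 0.10). In the second it was higher without overlap, at 7.83, 7.87, 7.64 and 7.73 in Men1 Rbp2 RIP-Cre against 7.37, 7.55 and 7.38 in Men1 RIP-Cre (0.33, SE 0.10). The neighbours thus differed in different comparisons.

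B4galnt3, an enzyme that adds N-acetylgalactosamine to sugar chains, read 7.84, 7.94 and 7.97 in RIP-Cre and 7.51, 7.70, 7.56 and 7.68 in Rbp2 RIP-Cre (-0.30, SE 0.09). With loss of Men1 the ranges met, at 7.19, 7.38 and 7.33 against 7.61, 7.38, 7.56 and 7.39 (0.19, SE 0.09). Ninj2, an adhesion protein named for its rise after nerve injury, differed by -0.36 (SE 0.10) in the first comparison without overlap and by 0.11 (SE 0.10) in the second with overlap. The coiled-coil gene Ccdc77, which adjoins Kdm5a, differed by -0.37 (SE 0.09) without overlap and by -0.01 (SE 0.09) with overlap. These 3 genes, like Slc6a13 and the brightest probe set of Erc1, were lower without overlap in the first comparison and overlapped in the second. All 5 also lay below the same RIP-Cre arrays in Men1 RIP-Cre, a comparison that shares those controls. The size of the first difference depended on the processing. At its smallest it was -0.13 for B4galnt3, -0.16 for Ninj2, -0.22 for Ccdc77 and -0.20 for Slc6a13 over the alternatives run. For Slc6a12, which overlapped, it was -0.03.

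Rad52, which anneals DNA strands in recombination, hardly varied. Its 5 group means ran from 9.01 (RIP-Cre) to 9.04 (Men1 RIP-Cre), and 16 of its 17 values lay between 8.96 and 9.13. The exception was RIP-Cre array 3 at 8.85. Its differences in the Rbp2 comparisons were 0.02 (SE 0.08) and -0.01 (SE 0.08).

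**Figure D3:**
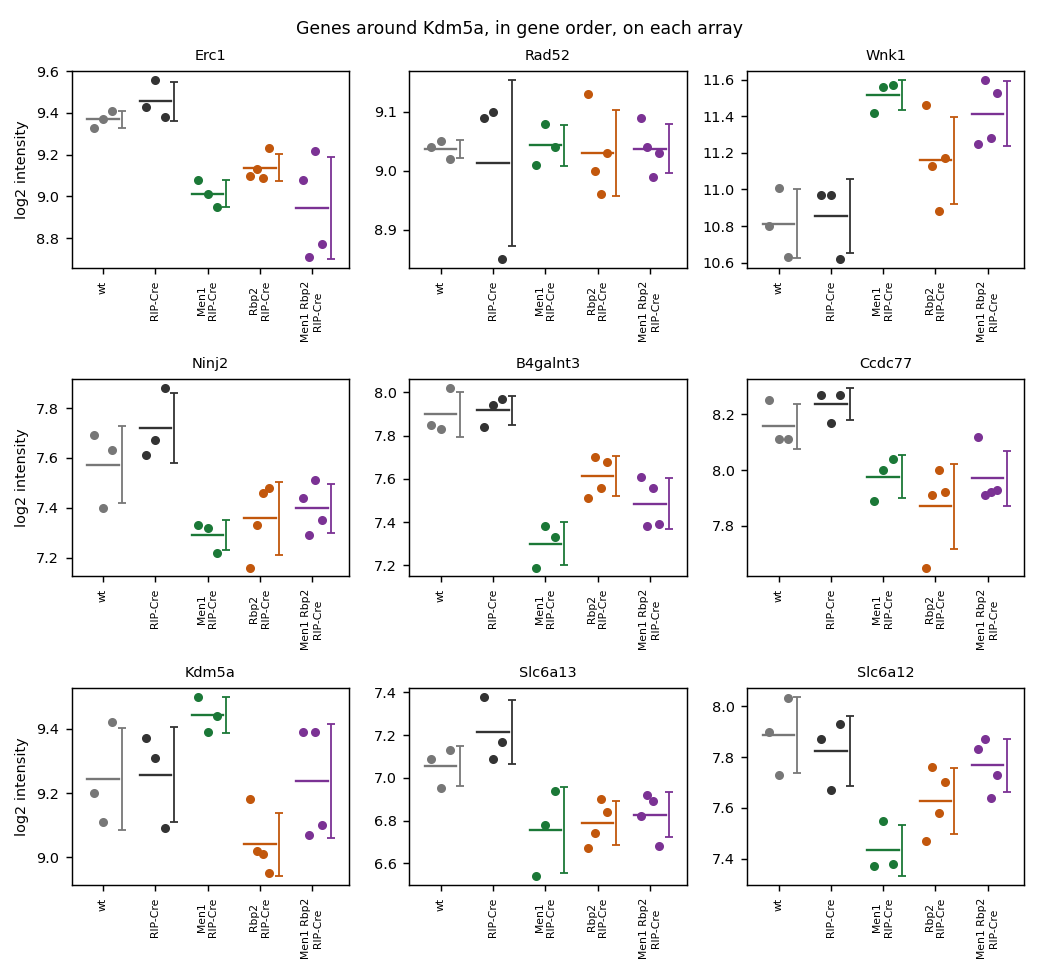
Log2 intensity (vertical axes, each with its own range) of Kdm5a and 8 genes around it on each array, by group, in gene order, with lines for means and bars for 1 SD. Rad52 stays near 9.03 in every group. B4galnt3, Ninj2 and Erc1 on its brightest probe set are lower in Men1 RIP-Cre and Rbp2 RIP-Cre than in RIP-Cre, while other Erc1 probe sets, not drawn here, are higher.

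Wnk1 and Erc1 had several probe sets, and those of Erc1 disagreed. Wnk1, a kinase that senses chloride and drives salt transporters, read 10.97, 10.97 and 10.62 in RIP-Cre and 11.46, 11.13, 10.88 and 11.17 in Rbp2 RIP-Cre on its main probe set (0.31, SE 0.14, with overlap). That difference was not kept when the array median was held fixed (-0.0041). The array median tended to be lower in Rbp2 RIP-Cre (7.82 to 7.98) than in RIP-Cre (7.97 to 8.16). Holding it fixed can therefore take out part of a group difference too. The other Wnk1 probe set differed by 0.22 (SE 0.12), also with overlap. In the second Rbp2 comparison the 2 probe sets differed by -0.10 (SE 0.14) and -0.03 (SE 0.12).

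Erc1, known as ELKS, is a scaffold of active zones that also sits where insulin granules dock. Its brightest probe set read 9.43, 9.56 and 9.38 in RIP-Cre and 9.10, 9.13, 9.09 and 9.23 in Rbp2 RIP-Cre (-0.32, SE 0.11), which is lower without overlap. A second probe set, 10547404, read 7.62, 7.54 and 7.01 in RIP-Cre and 8.50, 8.33, 8.10 and 8.33 in Rbp2 RIP-Cre (0.93, SE 0.14), which is higher without overlap. The third, 10547408, read 7.27, 7.28 and 7.26 against 7.30, 7.49, 7.33 and 7.33, also higher without overlap but by 0.09 (SE 0.08). In Men1 Rbp2 RIP-Cre against Men1 RIP-Cre the 3 probe sets differed by -0.07 (SE 0.11), 0.10 (SE 0.14) and -0.10 (SE 0.08), all with overlap. With probe sets that run opposite ways, no direction is given for Erc1 as a gene.

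**Figure D4:**
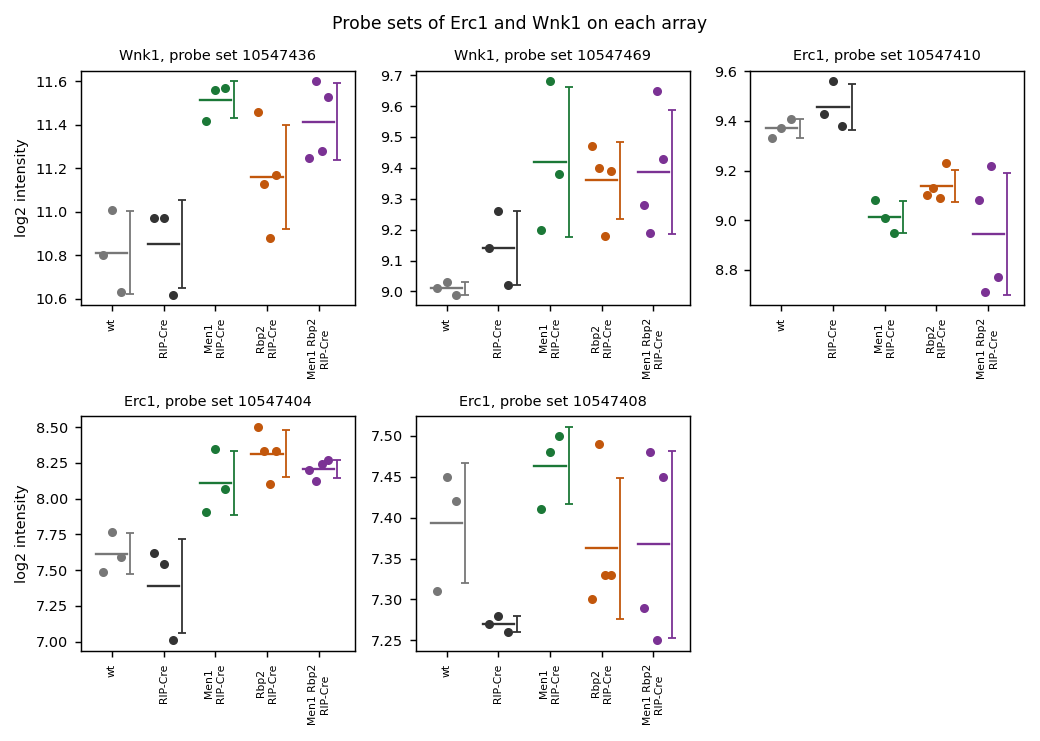
Log2 intensity (vertical axes, each with its own range) of the 2 Wnk1 and 3 Erc1 probe sets on each array, by group, with lines for means and bars for 1 SD. Erc1 probe set 10547410 is lower and 10547404 higher in Men1 RIP-Cre and Rbp2 RIP-Cre than in RIP-Cre.

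The Men1 and Cre comparisons were not the contrast used to choose the genes, and they were run with limma. All 5 groups gave levels to that choice, and RIP-Cre is also the control of an Rbp2 comparison. Calls of members here and below are thus not independent of the choice. The threshold was a p-value under 0.05 after Benjamini-Hochberg adjustment over all 19938 genes. With Men1 RIP-Cre set against RIP-Cre, 8 of the 10 genes passed, 2 higher and 6 lower, beside 53.5% of all genes (15.7% higher and 37.8% lower). Sumf1 rose by 0.57 (SE 0.11, limma adjusted p = 0.00127, higher on 3 of 3 arrays than on every RIP-Cre array) and Wnk1 by 0.66 (SE 0.15, limma adjusted p = 0.00282, 3 of 3). The 6 lower genes were B4galnt3 (-0.62, limma adjusted p = 0.000356), Slc6a13 (-0.46), Erc1 on its brightest probe set (-0.44), Ninj2 (-0.43), Slc6a12 (-0.39) and Ccdc77 (-0.26, limma adjusted p = 0.0358), each on 3 of 3 arrays below every RIP-Cre array. With Apobec1, which lay below without overlap too, this makes 2 genes higher and 7 lower without overlap, beside 18.7% and 44.8% of all genes. Apobec1 (-0.42, SE 0.19, limma adjusted p = 0.0643) and Rad52 (0.03) did not pass. Against wt the Apobec1 difference was 0.13, so it has no settled direction with loss of Men1.

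The 8 of 10 calls are read against a background of 53.5%, and their number changed with how arrays were scaled or adjusted. After cyclic loess normalization 4 of the 10 passed, Sumf1 and Wnk1 higher and B4galnt3 and Erc1 lower, beside 34.5% of all genes. With the array median held fixed 0 of 10 passed, beside 1.99%, and Sumf1 stood at 0.46 (adjusted p = 0.13). The array median itself separated these groups, at 7.97 to 8.16 in RIP-Cre and 7.86 to 7.87 in Men1 RIP-Cre. Holding it fixed therefore also takes out part of any group difference, and cannot tell scaling from genotype. The Ccdc77 call ended without RIP-Cre array 1 (-0.24, adjusted p = 0.0824), RIP-Cre array 3 (-0.24, adjusted p = 0.0977), Men1 RIP-Cre array 1 (-0.22, adjusted p = 0.123) or Men1 RIP-Cre array 2 (-0.27, adjusted p = 0.0647). Among the other probe sets, Erc1 10547404 rose by 0.72 (limma adjusted p = 0.00201), while Wnk1 10547469 (0.28) and the third of Erc1 (0.19) did not pass.

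Where Rbp2 was floxed, loss of Men1 moved none of these genes past the threshold. In Men1 Rbp2 RIP-Cre against Rbp2 RIP-Cre 0 of 10 passed with limma, beside 1.2% of all genes. At an unadjusted p under 0.05 it was also 0 of 10, and the share of all genes at that threshold was not counted. Differences ran from -0.19 (Erc1) to 0.26 (Wnk1, SE 0.13). Sumf1 stood at 0.06 (SE 0.09) and Apobec1 at 0.06 (SE 0.16).

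The interaction is the difference between the 2 Rbp2 differences. Since both entered the choice of the genes, it is a description here, with no p-value. It was 0.49 (SE 0.25) for Apobec1, -0.52 (SE 0.14) for Sumf1 and 0.49 (SE 0.13) for B4galnt3. With RIP-Cre as control, the Rbp2 differences of Apobec1 and Sumf1 were thus nearer to 0 in Men1 knockouts. For Apobec1 this depends on the control, since with wt as control its Rbp2 difference was -1.05, beside -1.12 in Men1 knockouts. Over 13 alternatives the Apobec1 interaction ran from -0.06 to 0.65. The median interaction of the 10 genes was 0.42, beside 0.20 over all genes. The threshold was met for 1 of 10 genes (B4galnt3, higher), beside 3.39% of all (1.78% higher), and nothing is read from that count. It moved between 0 and 4 with the settings, and Sumf1 met the threshold in 5 of 13 alternatives, over which its value ran from -0.57 to -0.42.

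The Cre transgene alone passed for 0 of 10 genes with limma, beside 0% of all genes. An unadjusted p under 0.05, for which the share of all genes was not counted, was found for 1 of 10 genes. That gene was Apobec1, at 0.55 (SE 0.19, limma adjusted p = 1), with all 3 RIP-Cre arrays above all 3 wt arrays, which 2.15% of all genes show. The difference stayed between 0.47 and 0.70 when each array was left out in turn. The other 9 differed by at most 0.16 (Slc6a13).

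Genes between Sumf1 and Apobec1 on chromosome 6 were taken by position alone, so they could be tested. Of 123 measured genes in that stretch, 112 are neither among the 10 nor Kdm5a. In Rbp2 RIP-Cre against RIP-Cre limma called 13 of the 112 (11.6%), 3 higher and 10 lower, beside 13.4% of all genes (6.7% higher and 6.7% lower). In Men1 Rbp2 RIP-Cre against Men1 RIP-Cre it called 5 (4.46%), 3 higher and 2 lower, beside 1.67% of all genes (1.1% higher and 0.567% lower). In both comparisons in the same direction it called 0 of 112, beside 0.376% of all genes, and 0 of 112 separated all 8 floxed Rbp2 arrays from the other 9. The 13 calls fell to 0 without RIP-Cre array 3, without Rbp2 RIP-Cre array 1 and with the array median held fixed, and to 7 without Rbp2 RIP-Cre array 2. Calls over all genes fell too, from 2672 to 223 without RIP-Cre array 3 and to 42 with the array median held fixed. The falls are thus not particular to this stretch. The 5 calls fell to 0 without Men1 RIP-Cre array 1, to 2 without Men1 RIP-Cre array 3 and to 3 without Men1 Rbp2 RIP-Cre array 2, 3 or 4. Without Men1 RIP-Cre array 1, calls over all genes fell from 333 to 111.

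Among the 13 called interval genes, those with the largest changes in Rbp2 RIP-Cre were Zfand4, a zinc finger gene (-0.84, SE 0.26, limma adjusted p = 0.0458), Mical3, an actin-oxidising enzyme that acts in vesicle fusion (-0.68, SE 0.15, limma adjusted p = 0.0154), and Atp6v1e1, a subunit of the proton pump (0.61, SE 0.15, limma adjusted p = 0.0244). Olfr212, an odorant receptor (-0.50), and Cpne9, a copine (-0.48), followed among the called genes. Mical3 read 10.52, 10.39 and 10.41 in RIP-Cre and 9.56, 9.83, 9.64 and 10.01 in Rbp2 RIP-Cre. It lay lower there without overlap, while in Men1 Rbp2 RIP-Cre against Men1 RIP-Cre it stood at -0.27 (limma adjusted p = 0.405).

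In Men1 Rbp2 RIP-Cre against Men1 RIP-Cre the 5 called interval genes were others. The interferon-induced protease Usp18 fell by 0.78 (SE 0.16, limma adjusted p = 0.0169) and Iqsec3, an exchange factor of synapses, by 0.53 (SE 0.11, limma adjusted p = 0.0219). The synaptic vesicle gene Syn2 (0.64), the receptor gene Il17re (0.55) and the fat cell regulator Pparg (0.41) rose. Usp18 read 9.16, 8.78 and 9.25 in Men1 RIP-Cre and 8.36, 8.44, 8.01 and 8.31 in Men1 Rbp2 RIP-Cre, with no overlap. Its Rbp2 difference without loss of Men1 was 0.12, and the interaction passed (-0.91, SE 0.23, limma adjusted p = 0.0468).

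**Figure D5:**
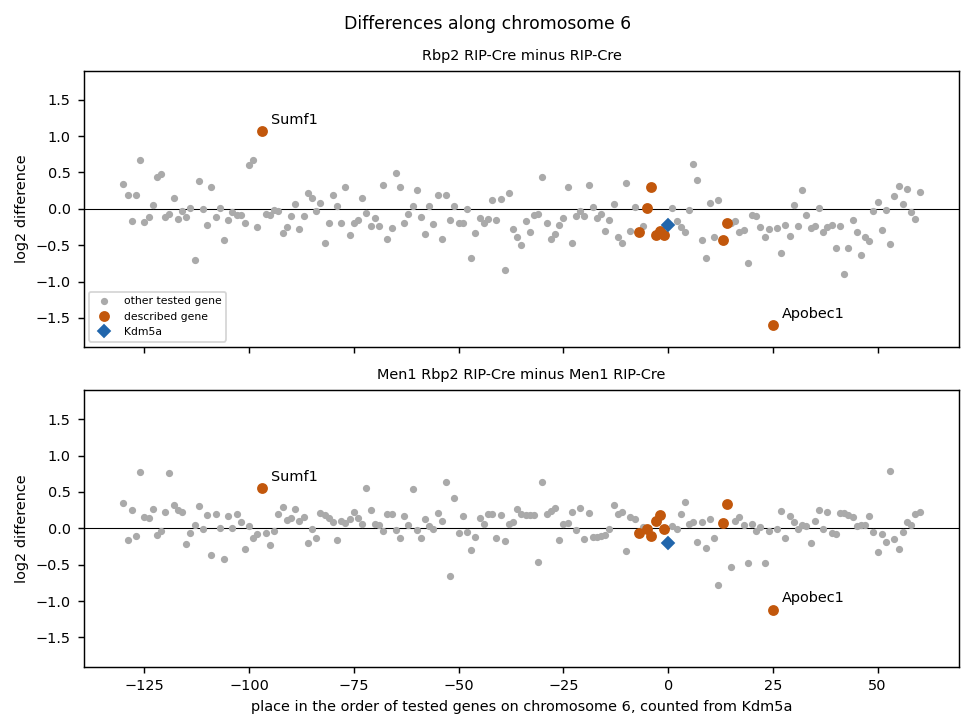
Log2 difference (vertical axes) in each Rbp2 comparison along the order of tested genes on chromosome 6, counted from Kdm5a (horizontal axis), a point per gene. Apobec1 lies low (-1.60 and -1.12) and Sumf1 high (1.07 and 0.56) in both panels. Other genes of the chromosome reach the size of Sumf1, among them Usp18 (-0.78) and Syn2 (0.64) between the pair in the second panel.

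Next to Kdm5a itself, 14 of the 20 nearest measured genes are not among the 10. In Rbp2 RIP-Cre against RIP-Cre 5 of the 14 passed (2 higher and 3 lower), namely Hdhd5 (-0.25), Atp6v1e1 (0.61), Bcl2l13 (0.40), Bid (-0.43) and Mical3 (-0.68), all on the Apobec1 side, which is 35.7% beside 13.4% of all genes, and 0 of 14 passed in the other Rbp2 comparison, beside 1.67%. The 5 calls fell to 0 without RIP-Cre array 3, without Rbp2 RIP-Cre array 1, and with the array median held fixed. Over all genes, calls fell from 2672 to 223 without RIP-Cre array 3 and to 42 with the array median held fixed. Past the ends of the stretch, 3 of the 20 next genes beyond Sumf1 and 3 of 20 beyond Apobec1 passed in Rbp2 RIP-Cre (15% each, beside 13.4% of all genes), and 0 of 20 at either end in the other comparison. On the rest of chromosome 6, 118 of 936 (12.6%) and 23 of 936 (2.46%) passed. Around Men1 on chromosome 19, 22 of the 40 nearest genes (55%) passed in Men1 RIP-Cre against RIP-Cre, beside 53.5% of all, and 0 of 40 in Men1 Rbp2 RIP-Cre against Rbp2 RIP-Cre.

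Genes that work with the members were read from fixed lists. Of 9 measured partners and relatives of Apobec1, 1 rose and 0 fell in each Rbp2 comparison, where 13.4% and 1.67% of all genes passed. In Rbp2 RIP-Cre that was Hnrnpab, an RNA-binding partner of the editing enzyme (0.58, limma adjusted p = 0.0343), and in Men1 Rbp2 RIP-Cre it was A1cf, the factor that brings Apobec1 to its target (0.50, limma adjusted p = 0.0248). With loss of Men1 in RIP-Cre islets, where 53.5% of all genes passed, 2 rose, Hnrnpab (0.95) and Celf2 (0.37), and 2 fell, the antiviral deaminase Apobec3 (-1.09) and A1cf (-0.62).

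Of 14 measured sulfatases and helpers of Sumf1, 3 rose and 0 fell in Rbp2 RIP-Cre against RIP-Cre, beside 6.7% of all genes higher and 6.7% lower. They were the disulfide isomerase Pdia4 (0.81, limma adjusted p = 0.0221), Erp44, which retains Sumf1 in the secretory pathway (0.76, limma adjusted p = 0.0385), and the iduronate sulfatase Ids (0.61, limma adjusted p = 0.0464). In Men1 Rbp2 RIP-Cre against Men1 RIP-Cre 1 of 14 rose, the galactosamine sulfatase Galns (0.51, limma adjusted p = 0.00286). In Men1 RIP-Cre 5 rose, among them Erp44 (0.84) and Pdia4 (0.67), and 3 fell, among them Arsi (-0.61) and Sulf1 (-0.49), beside 15.7% of all genes higher and 37.8% lower.

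Other lists, here and in the next paragraph, are read beside the shares of all genes that passed. These were 53.5% in Men1 RIP-Cre against RIP-Cre, 13.4% in Rbp2 RIP-Cre against RIP-Cre and 1.67% in Men1 Rbp2 RIP-Cre against Men1 RIP-Cre. Of 16 genes of the WNK pathway 3 rose and 9 fell in Men1 RIP-Cre, led by the ubiquitin ligase scaffold Cul3 (0.73), the cotransporter Slc12a2 (0.49), Slc12a7 (-1.54) and Wnk2 (-0.54), and 0 of 16 passed in either Rbp2 comparison. Slc12a7 also fell in Men1 Rbp2 RIP-Cre against Rbp2 RIP-Cre, by 0.81 (limma adjusted p = 0.0121). Of 10 genes of GABA, betaine and taurine handling 3 rose in Men1 RIP-Cre, led by the creatine transporter Slc6a8 (1.02) and the taurine transporter Slc6a6 (0.78). Another 2 fell there, Bhmt (-0.66) and Slc32a1 (-0.37). In Rbp2 RIP-Cre Slc6a8 was the only 1 of the 10 called (0.43), and in Men1 Rbp2 RIP-Cre against Rbp2 RIP-Cre Aldh7a1 fell by 0.44 (its interaction was -0.50, limma adjusted p = 0.0482).

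Of 23 active zone and cortical partners of Erc1, 3 rose in Men1 RIP-Cre, led by Rab6a (0.63) and Rims3 (0.38), and 6 fell, led by Ppfibp1 (-0.74) and Unc13a (-0.51). In Rbp2 RIP-Cre 2 of 23 fell, Phldb2 (-0.38) and the liprin Ppfia2 (-0.35). Of 12 recombination genes 1 rose in Men1 RIP-Cre, Rpa3 (0.37), while in Rbp2 RIP-Cre Rpa1 rose (0.50) and Xrcc3 fell (-0.48). Of 6 relatives of B4galnt3 and Ninj2, Ninj1 rose (0.40) and B4galnt1 fell (-0.52) in Men1 RIP-Cre, and 0 of 6 passed in the Rbp2 comparisons.

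The genes whose levels followed Apobec1 most closely over the 17 arrays, after subtracting each array's median, were Fam219b (Pearson r = 0.909), Dmtn (0.890), Nfatc2ip (0.876), Tnfrsf10b (0.864) and Dmpk (0.864). For Sumf1 they were Ndufa10 (0.980), Ndufa9 (0.967), Mrpl39 (0.963), Hcfc1r1 (0.959) and Glyr1 (0.956). Of these 10 genes Ndufa9 is on chromosome 6. Apobec1 and Sumf1 ran against each other, with r = -0.774 over the same arrays. Levels of both in the Rbp2 groups entered their choice, so nothing is read from this r or from the closeness of the genes above. These are descriptions over arrays that share 5 groups.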

How the data were processed

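The deposited table of 17 arrays holds 35512 probe sets with log2 intensity values that the authors computed. That the scale is log2 was inferred here, since 82.3% of entries from 0 to 3 equal, at 2 decimals, log2 of some multiple of 0.25. Per the labels, single-stranded DNA made from total RNA was labelled with biotin. How arrays were summarised, corrected for background or normalized is not given in the sources used here. Arrays carry no counts, so their number limits the precision.

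Probe sets that name 1 gene (21789, while 1621 name several and 12102 are not in the platform's gene table) gave 19938 genes, each represented by its brightest probe set on average. Other probe sets of Erc1 and Wnk1 were adjusted over all 21789. A limma 3.58.1 model (R 4.3.3) with 1 mean per group used all arrays, after being tested on simulated data. A gene was called, or passed, at an adjusted p under 0.05. A difference is a difference of log2 means, and "without overlap" means that no array of 1 group lies within the other's range. Genes were placed by matching gene IDs to RefSeq.

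The members and lists were chosen with earlier results of these data known. Named genes follow a rule: all members, Kdm5a, Men1, interval genes called in both Rbp2 comparisons or among the 5 largest of each, up to 2 list genes per direction and comparison, and the 5 most correlated genes. Hdhd5, Bcl2l13 and Bid fall outside it and were named after their values were seen. Alternatives changed the control, samples, block, filter, probe set, normalization, covariates, variance model, and left out arrays. Marker lists for lymphocytes, acinar, endothelial and duct cells were read too.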

Additional observations from a re-analysis of the deposited data

Results flagged for a closer look

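Among 30 groups of 4 arrays checked, 3 held an array whose gap to its nearest neighbour was over 0.829 of the group's range, where chance gives about 1 in 20. Apobec1 stood at 8.95 on Rbp2 RIP-Cre array 4, beside 8.56 to 8.62 on the other 3. Without that array the difference from RIP-Cre was -1.69. Ccdc77 stood at 8.12 on Men1 Rbp2 RIP-Cre array 1, beside 7.91 to 7.93. Erc1 probe set 10547408 stood at 7.49 on Rbp2 RIP-Cre array 2, beside 7.30 to 7.33.

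For 2 probe sets the interaction met the threshold, and they are listed for that and not for its size. Interactions larger than that of B4galnt3 did not meet it in Slc6a12 (0.53), Sumf1 (-0.52) and Slc6a13 (0.50). Since values of the Rbp2 groups entered the choice of the genes, these are descriptions, and the difference is not taken as tested. For B4galnt3 the interaction was 0.489, from -0.30 in RIP-Cre to 0.19 in Men1 knockouts. For Erc1 probe set 10547404 it was -0.828, from 0.93 to 0.10, while the brightest Erc1 probe set gave 0.25.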

How the results depend on the processing

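The differences of Apobec1 and Sumf1 kept their direction in both Rbp2 comparisons under every alternative run. Both genes were chosen on these differences, and all 8 floxed Rbp2 arrays lay beyond all 9 others. Leaving out arrays or changing the control could therefore not turn the direction, and nothing is read from its being kept. Apobec1 in Rbp2 RIP-Cre moved to -1.05 with wt as control and -1.33 with wt and RIP-Cre pooled. Leaving out arrays gave -1.69 to -1.56 for Apobec1 and 1.02 to 1.15 for Sumf1 in that comparison, and -1.25 to -0.94 and 0.51 to 0.62 in Men1 Rbp2 RIP-Cre. For Erc1 the probe set with the lowest mean turned the direction to 0.19 in Men1 RIP-Cre and 0.0925 in Rbp2 RIP-Cre, and Wnk1 in Rbp2 RIP-Cre went to -0.0041 with the array median held fixed. The causes of these changes were not tested.

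Of the 8 members called in Men1 RIP-Cre, 5 were called after quantile and 4 after cyclic loess normalization, 0 with the array median held fixed, and 7 to 8 without single arrays. Calls over all genes, 10660 in the main model, ran from 396 to 12715 over the alternatives. Such changes are therefore not particular to the members. The count of members past the threshold in the interaction (1), which is only a description, became 2 with wt as control, with only the arrays compared or with all probe sets, 3 with pooled controls or with an intensity trend and robust variances, 4 with the filter on low levels (which leaves 9 members), and 0 after quantile or cyclic loess normalization, with the array median or macrophage mean held fixed, or without wt 1, wt 3 and RIP-Cre 3. It ran from 0 to 4 without single arrays. Over the alternatives, genes of the whole array past this threshold ran from 20 to 3256. The members called stayed at 0 for the Cre transgene and for loss of Men1 where Rbp2 was floxed. Interval genes called in Rbp2 RIP-Cre (13) became 7 with wt as control, 29 with pooled controls, 4 with only the arrays compared, 0 with the array median held fixed, 1 without wt 1, wt 3 and RIP-Cre 3, and 0 to 18 without single arrays. In Men1 Rbp2 RIP-Cre (5) they ran from 0 to 5 without single arrays. Calls over all genes in Rbp2 RIP-Cre moved as well, from 2672 to 6221 with pooled controls and to 42 with the array median held fixed.

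The labels do not say whether repeat numbers pair the arrays, and the main model treated them as unpaired. Deviations from group means correlated by 0.06 on average over 31 pairs with the same number (-0.30 to 0.45). Over 84 pairs with different numbers the mean was -0.02 (-0.61 to 0.48). Whether arrays with the same number share a batch was not tested. With the repeat number as a replicate block the members past the threshold in the interaction became 3 and the 5 interval calls 2, and all genes called in the interaction went from 675 to 1933.

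Over all genes, calls went from 2672 to 42 in Rbp2 RIP-Cre and from 10660 to 396 in Men1 RIP-Cre with the array median held fixed, and to 475 and 6944 without wt 1, wt 3 and RIP-Cre 3. Since the array median was lower in Men1 RIP-Cre than in RIP-Cre without overlap, holding it fixed can remove group differences too. Pooled controls gave 6221 in Rbp2 RIP-Cre. The interaction ran from 20 to 3256, Men1 Rbp2 RIP-Cre against Rbp2 RIP-Cre from 133 to 510, and RIP-Cre against wt from 0 to 107.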

Other observations

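Apobec1 and Sumf1 were 2 of 88 genes whose 8 floxed Rbp2 arrays all lay on the same side of the other 9. Of those, 8 are on chromosome 6, among 1099 genes measured there, and 80 elsewhere. By the gap between the groups, Pcp4, a calmodulin regulator on chromosome 16, came first (higher by a gap of 0.54), followed by Vps50, a vesicle-tethering gene on chromosome 6 (0.48), Akr1c14 (0.46), Tomm40l (0.45) and Apobec1 (lower, 0.43). Dmtn, among the genes most like Apobec1, was lower with a gap of 0.15, and Glyr1, among those most like Sumf1, was higher with 0.16. These genes were named after their values were seen.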
